A study of Mus musculus with 8 samples.

Results

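The first sampled response of mouse retinal organoids to the compound dTAG-13 was described by comparing organoids exposed for 1 h with untreated organoids (0 h). A gene entered when its locus carried 1 gene name shared with no other locus, its estimate had the status OK in both conditions, its level reached 1 FPKM in at least 1 of them, and its estimated read count reached 10 in at least 1 of them. FPKM stands for fragments per kilobase of transcript scaled to sequencing depth, so that levels can be compared between genes per length. Of 35494 loci in the table, 4822 had no gene name and 638 had several, 28885 had a name of their own, and 11174 genes passed all steps. These genes held 92.42% of the 31945124 estimated counts at 0 h and 92.35% of the 32562075 at 1 h.

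All organoids came from a single knock-in line of mouse cells with an Rx:GFP reporter, in which FKBP12F36V-HA, a degradation tag, had been added to the end of METTL3 on both copies of its gene. Polyadenylated RNA was sequenced from 8 libraries, 2 for each of 4 groups: untreated, and 1, 8 and 24 h of 125 nM dTAG-13. The 0 h group carries the same tag and reporter and differs by the absence of dTAG-13 (whether it received solvent is not given in the sources used here). No group is an untagged line given dTAG-13, and none is labelled as handled for 1 h without it. Loss of METTL3, other effects of the compound and handling therefore cannot be told apart. Organoids of all 4 groups, 0 h included, are recorded as day 6 of differentiation. The labels place treatment on days 5 and 6 and state that cells were collected together. They also name a 2 h exposure, which was not analysed here.

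METTL3 is the catalytic subunit of the complex that writes N6-methyladenosine (m6A) on messenger RNA, a mark bound by YTH-domain proteins that can shorten the life of a transcript. dTAG-13 bridges the FKBP12F36V tag to the cereblon ubiquitin ligase, so that the tagged protein is degraded while its messenger RNA need not change. A sample taken this early can catch genes whose transcripts are made and destroyed quickly, such as immediate early genes, stress-response genes and clock genes.

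Each deposited column pools both libraries of its group, so no SD between libraries and no p-value could be had. As the error of each FPKM the deposited lower and upper limits are given, whose confidence level is not given in the sources used here. A gene was called when its FPKM differed by at least 1.5-fold, after 0.1 FPKM was added to both values, and its intervals at 0 and 1 h did not overlap. Log2 ratios below are of 1 h over 0 h FPKM with 0.1 added, which makes the changes of low genes look smaller. The labels do not say that the libraries came from separate cultures.

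Few transcripts of named genes had moved after 1 h, and most of those that had were lower. By this rule 24 of 11174 genes were called (0.215%), 23 lower (0.206%) and 1 higher (0.00895%). The median log2 ratio over all genes was -0.0005, the quartiles were -0.11 and 0.10, and 84.3% of genes lay within 0.25 of 0. A 1.5-fold difference alone was met by 156 genes on the lower side and 77 on the higher side. The precision of the values sets what could be seen. Among genes whose 0 h interval stays above 0, the median gene needed to be 1.77-fold lower for its intervals to part (quartiles 1.60 and 2.17). The 418 genes whose 0 h interval reaches 0 could not be called lower at any fold. A gene that differed by less than its own threshold could not be called. In bulk RNA, fewer cells of a type and less RNA per cell cannot be told apart.

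**Figure D1:**
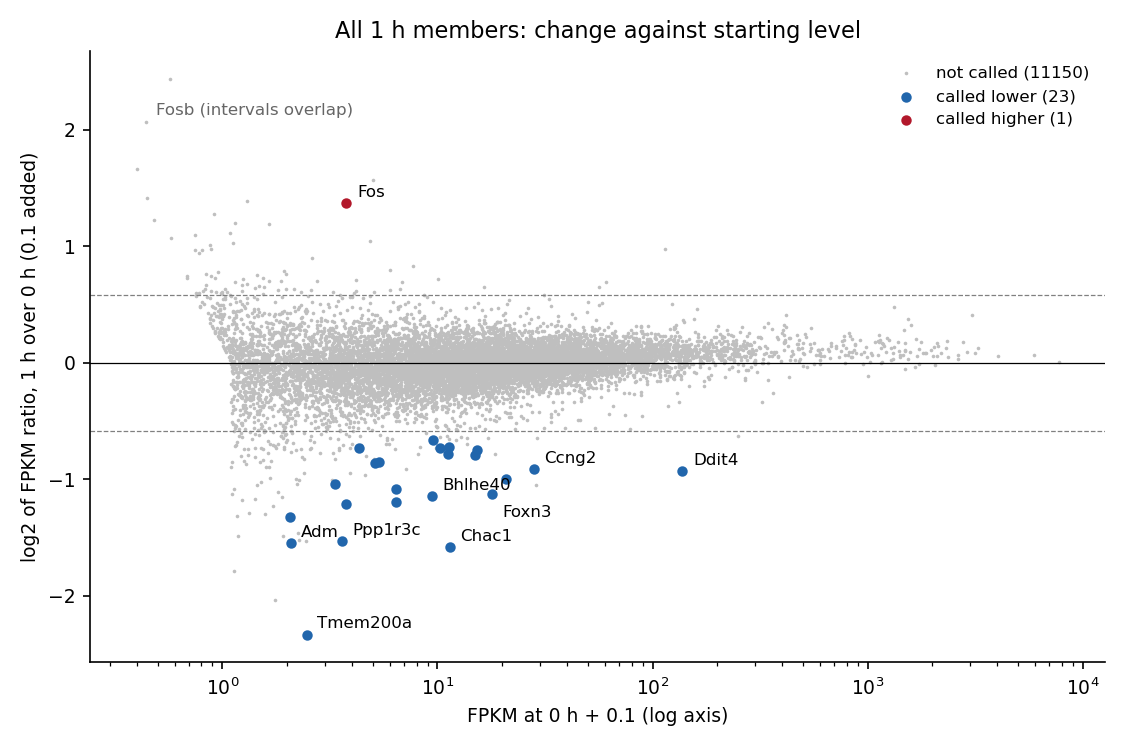
Log2 of the FPKM ratio of 1 h over 0 h (vertical axis, 0.1 FPKM added) against the 0 h FPKM plus 0.1 (horizontal log axis) for 11174 genes, with dashed lines at 1.5-fold. The 23 genes called lower (blue) lie across starting levels from 1.96 to 138 FPKM, Fos (red) is the gene called higher, and the high points at the left, Fosb among them, have overlapping intervals.

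Mettl3 itself, on chr14:52294841-52305128, was at 19.2 FPKM at 0 h (interval 9.92 to 28.5) and 19.1 FPKM at 1 h (8.82 to 29.4), a log2 ratio of -0.01. The intervals overlap almost fully. A transcript level does not check the loss of a tagged protein, which these files do not measure. The Mettl3 locus shares its span with Tox4 and Rab2b, whose reads the authors' counting had to divide from it.

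The markers of the labelled tissue were present. The eye-field transcription factors Lhx2 and Pax6 stood at 142 FPKM (111 to 172) and 127 FPKM (94.5 to 159) at 0 h, and at 146 FPKM (114 to 179) and 136 FPKM (102 to 169) at 1 h. Rax, the eye-field factor that the reporter is named after, went from 49.1 FPKM (38.7 to 59.5) to 45.1 FPKM (35.6 to 54.7). Of 26 eye-field and retinal progenitor markers 21 were measured and 0 were called (0.215% of all genes were called), with a median log2 ratio of 0.03. Pluripotency genes were also measured (22 of 24 markers, 0 called, median 0.05). Summed over the markers with a locus, they stood at 670 FPKM at 0 h and 724 FPKM at 1 h. The eye-field list summed to 1022 FPKM and 1066 FPKM, and Otx2 and Tbx3 stand in both lists.

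The gene called higher was Fos, the AP-1 subunit and classic immediate early gene on chr12:85473890-85477273. It was at 3.68 FPKM at 0 h (2.42 to 4.94) and 9.69 FPKM at 1 h (6.79 to 12.6), from 203 and 540 estimated counts, so that the 1 h interval starts above the end of the 0 h interval. The log2 ratio was 1.37, a fold of 2.59. Its promoter is shown because it is the sole promoter of a gene called higher. The line gives the 250 bases before the start of the gene (RefSeq, GRCm38.p6, chr12:85473640-85473889, plus strand), with TGACG, the core of the cyclic AMP response element bound by CREB and ATF factors, and TATAAA, the TATA box, in capitals on either strand.
Fos: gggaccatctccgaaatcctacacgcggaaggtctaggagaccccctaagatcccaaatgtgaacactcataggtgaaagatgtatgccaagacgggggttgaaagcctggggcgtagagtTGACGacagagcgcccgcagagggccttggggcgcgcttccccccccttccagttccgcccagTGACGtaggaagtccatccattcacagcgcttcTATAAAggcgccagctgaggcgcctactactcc
TGACG occurs 2 times in this window and in 26.6% of the promoter windows of all measured genes. TATAAA occurs in 6.04% of them.

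The other immediate early genes did not move as a block. Of 39 listed names 27 were measured, 17 of these lay above 0 and 10 below, 1 was called higher (Fos) and 1 lower (Ier3), and the list median was 0.08. Fosb, the sister AP-1 subunit, was at 0.341 FPKM at 0 h and 1.75 FPKM at 1 h, with both intervals reaching 0, so that it was not called. Its estimated counts were 36.6 and 205, and its locus overlaps those of 6 expressed genes, Vasp and Eml2 among them. Myc, a growth-promoting transcription factor, was at 15.3 FPKM (11.5 to 19.2) and 22.0 FPKM (16.7 to 27.3), which overlap. Egr1, a zinc-finger immediate early factor, was at 6.46 FPKM (4.94 to 7.97) and 8.91 FPKM (6.89 to 10.9), also overlapping. The Jun family members Jun and Jund had log2 ratios of 0.22 and 0.36, while Atf3, Ier2 and Ier5 were at -0.12, -0.09 and -0.08. In the tables of the later exposures, each of which is set against the same untreated libraries, Fos had a log2 ratio of 2.68 at 8 h, where it was called, and -0.26 at 24 h, where it was not (the same rule called 4.62% of genes after 8 h and 5.64% after 24 h). Fosb stood at 3.29 and -0.42, and Egr1 at 1.28 and 0.09, in the same tables.

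**Figure D2:**
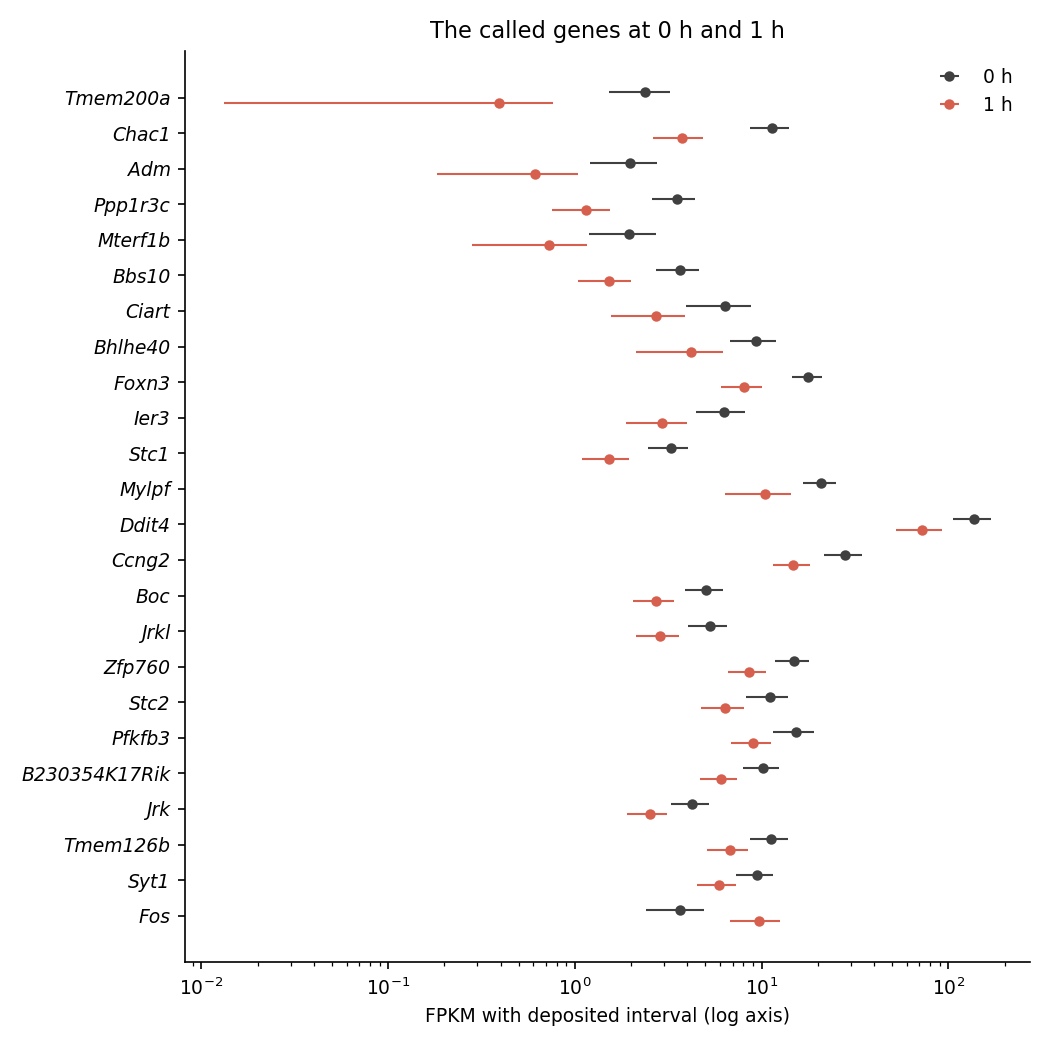
FPKM on a log axis for the 24 called genes at 0 h (grey) and 1 h (orange), with the deposited interval as the horizontal line. The pairs of lines do not overlap by construction; Fos at the bottom is the gene whose 1 h value lies to the right.

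Of the 40 lists, the one with the most genes that fell was the hypoxia response, the programme that the HIF factors switch on when prolyl hydroxylases slow for want of oxygen. Of 34 measured genes of the list 7 were called lower and 0 higher (20.6% against 0.206% of all genes called lower), 31 lay below 0 (91.2% against 50.1% of all genes), and the median log2 ratio was -0.32 against -0.0005 over all genes. Ddit4, Stc2, Bhlhe40 and Ier3 also stand in other lists. Without genes of other lists 3 of 29 were called lower (10.3%), with a median of -0.21, an alternative chosen after seeing the data. Without the 7 called genes the other 27 had a median of -0.19, with 24 below 0. The list was drawn up with earlier results of these data known, so these shares describe it. Of the 36 names in it, Ero1a is the other symbol of the measured Ero1l, and Hif1a lay in a locus with several names.

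Among the secreted and metabolic effectors of this list, Adm, which encodes the vasodilator peptide adrenomedullin (chr7:110627661-110629820), was at 1.98 FPKM at 0 h (1.20 to 2.76) and 0.611 FPKM at 1 h (0.183 to 1.04), a fall by 1.55 on the log2 scale. It rests on few reads, 74.1 and 23.2 estimated counts. Ppp1r3c, a subunit that directs protein phosphatase 1 to glycogen (chr19:36731731-36736653), was at 3.50 FPKM (2.58 to 4.42) and 1.15 FPKM (0.754 to 1.54), a fall by 1.53 on the log2 scale. Its relative Ppp1r3b, with the same role, was at 1.72 FPKM (1.24 to 2.19) and 1.02 FPKM (0.697 to 1.34), and these intervals overlap narrowly. Pfkfb3, which makes the activator of phosphofructokinase, went from 15.3 FPKM (11.5 to 19.0) to 9.03 FPKM (6.87 to 11.2). Its intervals are apart, and its log2 ratio was -0.75. Stc2, a secreted glycoprotein, went from 11.1 FPKM (8.25 to 13.8) to 6.39 FPKM (4.75 to 8.03), and Stc1, its paralog, which the list does not hold, from 3.25 FPKM (2.46 to 4.05) to 1.53 FPKM (1.10 to 1.96).

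Of the regulators in the list, Ddit4, an inhibitor of mTORC1 signalling also called REDD1 (chr10:59949669-59951834), was the most abundant of the called genes. It was at 138 FPKM at 0 h (105 to 170) and 72.4 FPKM at 1 h (52.6 to 92.2), from 6867 and 3639 estimated counts, a 1.90-fold lower level. The Ddit4 locus shares its span with Ascc1 and Anapc16. Bhlhe40, a transcriptional repressor of the clock and of the hypoxia programme, went from 9.36 FPKM (6.76 to 11.9) to 4.18 FPKM (2.12 to 6.23). Ier3, an early response gene that modulates cell death, went from 6.32 FPKM (4.48 to 8.16) to 2.94 FPKM (1.87 to 4.01). Egln3, one of the oxygen-sensing prolyl hydroxylases, stood just outside the rule, at 10.1 FPKM (7.84 to 12.4) and 6.49 FPKM (4.93 to 8.04).

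Many established HIF targets had lower values without being called. Vegfa, the endothelial growth factor, was at 39.3 FPKM (29.5 to 49.0) and 26.6 FPKM (19.9 to 33.3), and the collagen hydroxylase P4ha1 at 54.0 FPKM (43.0 to 65.0) and 36.6 FPKM (29.1 to 44.1). In both the intervals overlap. The histone demethylase Kdm3a had a log2 ratio of -0.49, the glucose transporter Slc2a1 -0.33 and the mitophagy receptor Bnip3 -0.34. The 3 genes above 0 were Vhl at 0.01, Selenbp1 at 0.08 and Higd1a at 0.18. Of the glycolysis genes, many of which HIF also drives, 17 were measured, 0 were called (against 0.215% of all genes) and the median was -0.07. The hexokinase Hk2, at 33.7 FPKM (26.7 to 40.7) and 23.7 FPKM (18.8 to 28.6), and the lactate exporter Slc16a3, at -0.37 on the log2 scale, were the lowest of them.

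The promoters of Ppp1r3c and Ddit4 are shown because both genes fell and both hold ACGTG, the core of the hypoxia response element. Each line gives bases upstream of the gene from RefSeq (GRCm38.p6), without those inside the GENCODE gene: 201 bases at chr19:36736654-36736854 and 186 bases at chr10:59951835-59952020, both on the minus strand. ACGTG on either strand is in capitals, and the run of 6 capitals in Ppp1r3c is the palindrome CACGTG, which holds ACGTG on both strands.
Ppp1r3c: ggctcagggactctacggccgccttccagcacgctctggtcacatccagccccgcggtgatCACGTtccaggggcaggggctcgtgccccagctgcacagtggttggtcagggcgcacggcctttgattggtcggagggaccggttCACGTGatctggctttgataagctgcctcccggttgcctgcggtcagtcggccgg
Ddit4: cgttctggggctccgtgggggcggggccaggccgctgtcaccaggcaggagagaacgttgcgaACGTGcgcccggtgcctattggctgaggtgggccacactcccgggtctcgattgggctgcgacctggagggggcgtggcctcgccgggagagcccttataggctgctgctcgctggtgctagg
In the 250 bases upstream, ACGTG occurred in 19 of 38 windows of the measured hypoxia genes (50.0%, 27 genes matched to the table), in 8 of 22 windows of the genes called lower (36.4%, 19 genes matched), in 22.1% of the windows of all measured genes and in 16.6% of all 32851 windows. Adm has no ACGTG in this window and 2 matches of GCGTG, the other form of the core, which 45.6% of the windows of measured genes hold. A match of letters is a description of the window.

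The same 7 genes were followed in the later tables, which share the untreated libraries with the 1 h table. Adm had log2 ratios of -1.55 at 1 h, 0.57 at 8 h and 1.49 at 24 h. Ppp1r3c had -1.53, 0.76 and 1.53. Bhlhe40 had -1.14, 0.60 and 1.14. Ddit4 had -0.93, 0.39 and 0.70. For these genes the sign at 1 h differs from the sign at both later times. Ier3 had -1.08, -0.03 and 0.81, and Pfkfb3 had -0.75, -0.06 and 0.37, while Stc2 stayed below 0 with -0.78, -0.27 and -0.48. Each called gene's 0 h FPKM differed by less than 1.1-fold between the 1 h table and the later tables. Over 33 genes each, the tables of 8 and 24 h gave hypoxia medians of 0.045 and 0.29.

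**Figure D3:**
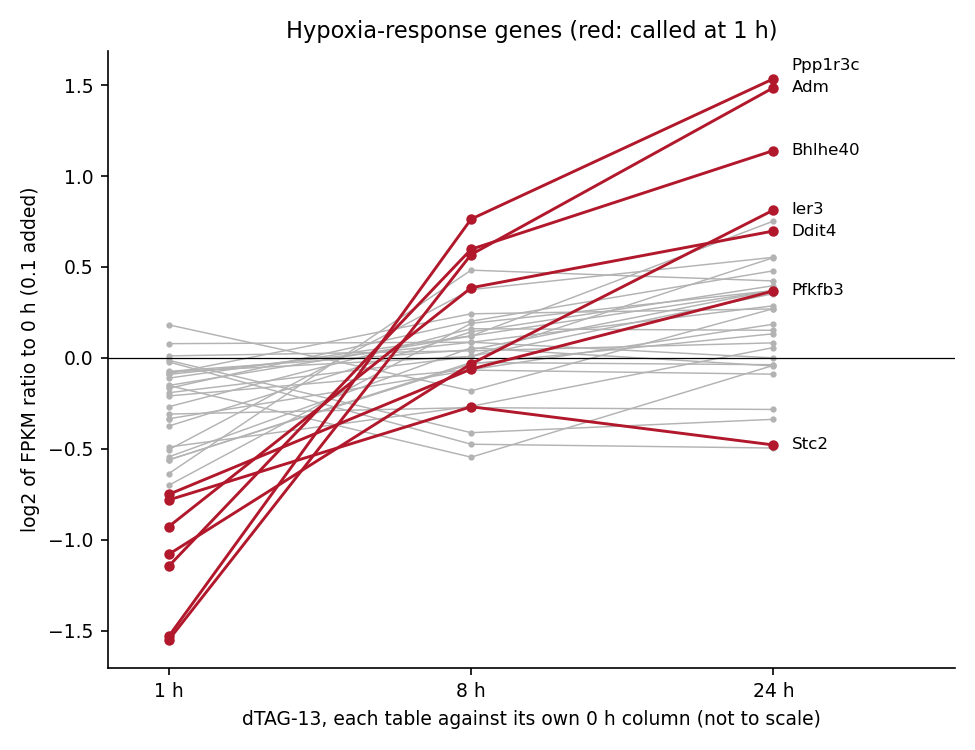
Log2 FPKM ratio to 0 h (vertical axis, 0.1 FPKM added) of the hypoxia-response genes at 1, 8 and 24 h (horizontal axis, not to scale), each from its own table with the same untreated libraries. The 7 genes called at 1 h are red; all start below -0.7 at 1 h, and at 24 h they lie between -0.48 (Stc2) and 1.53 (Ppp1r3c).

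The list of the integrated stress response held 3 genes that fell. This response raises translation of the factor ATF4, which then switches on genes for amino acid supply, redox balance and its own feedback. Chac1, an ATF4 target that degrades glutathione (chr2:119351229-119354381), was at 11.4 FPKM at 0 h (8.64 to 14.1) and 3.73 FPKM at 1 h (2.63 to 4.83), from 521 and 172 estimated counts. The 1 h interval ends far below the start of the 0 h interval, a 2.99-fold lower level and a log2 ratio of -1.58. Of 32 measured genes of the list 3 were called lower and 0 higher (9.4% called, against 0.206% of all genes called lower). They were Chac1, Ddit4 and Stc2, the last 2 of which the hypoxia list also holds. In the list 20 genes lay below 0 (62.5% against 50.1% of all genes), and the median was -0.06 against -0.0005. Trib3, a feedback inhibitor of ATF4, was at 5.83 FPKM (4.26 to 7.41) and 3.55 FPKM (2.51 to 4.59), with overlapping intervals. Atf4 itself was at 89.4 FPKM (71.1 to 108) and 65.2 FPKM (51.6 to 78.8), and these overlap as well.

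The amino acid genes of the same list that are named here, chosen after their values were seen, lay close to 0 at 1 h. Slc7a5, Slc3a2, Psph and Aars were not among the measured genes. Asns, asparagine synthetase, had a log2 ratio of 0.02, the serine synthesis enzymes Psat1 and Phgdh 0.05 and 0.06, and the transfer RNA synthetases Gars, Wars, Eprs, Sars and Nars between -0.04 and 0.09. The cystine transporter Slc7a11 was at 2.43 FPKM (1.79 to 3.06) and 2.50 FPKM (1.85 to 3.15). Its log2 ratio of 0.04 compares with -0.92 after 8 h and -2.69 after 24 h, and Phgdh had -0.62 and -0.97 there, each called in both. Chac1 stood at 0.44 at 8 h and 0.01 at 24 h. The tables of 8 and 24 h, which share the untreated libraries, gave list medians of -0.22 and -0.48.

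The Chac1 promoter is shown because it holds TGANGCAA, the composite site of an ATF and a C/EBP factor (N is any base), 2 times, in capitals below on either strand. The line gives 237 bases upstream of the gene (RefSeq, GRCm38.p6, chr2:119350992-119351228, plus strand).
Chac1: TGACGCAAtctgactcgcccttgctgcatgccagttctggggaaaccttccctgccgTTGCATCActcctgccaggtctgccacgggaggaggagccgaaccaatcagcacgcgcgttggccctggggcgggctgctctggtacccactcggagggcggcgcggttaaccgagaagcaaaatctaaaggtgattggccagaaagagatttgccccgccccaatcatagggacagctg
This motif occurred in 2.46% of the 250-base windows of all measured genes and in 4 of 33 windows of the measured integrated stress response genes (12.1%).

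Among the clock genes, 2 repressors fell. The clock runs on BMAL1 (Arntl) and CLOCK, which bind E-boxes and drive their own repressors. Ciart, also called CHRONO, a repressor of that pair (chr3:95878503-95882251), went from 6.35 FPKM (3.94 to 8.76) to 2.72 FPKM (1.56 to 3.87), intervals that part narrowly. Its locus shares its span with C920021L13Rik and BC028528. Of 16 measured clock genes 2 were called lower and 0 higher (12.5% called, against 0.206% of all genes called lower). They were Ciart and Bhlhe40, the latter of which the hypoxia list also holds. In the clock list 9 genes lay below 0 (56% against 50.1% of all genes), with a median of -0.07 against -0.0005. Bhlhe41, the paralog of Bhlhe40, was at 3.19 FPKM (1.72 to 4.66) and 1.82 FPKM (1.26 to 2.38), and the output factor Dbp had a log2 ratio of -0.54 with intervals that reach 0. Per1 and Per3 were at -0.45 and -0.39 with wide, overlapping intervals. The activator Arntl was at 3.18 FPKM (2.31 to 4.06) and 3.89 FPKM (2.82 to 4.97), and the repressor Nr1d2 had a log2 ratio of 0.26, neither called.

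The Ciart promoter is shown for its E-boxes: CACGTG, in capitals, occurs 3 times in the 227 bases upstream of the gene (RefSeq, GRCm38.p6, chr3:95882252-95882478, minus strand).
Ciart: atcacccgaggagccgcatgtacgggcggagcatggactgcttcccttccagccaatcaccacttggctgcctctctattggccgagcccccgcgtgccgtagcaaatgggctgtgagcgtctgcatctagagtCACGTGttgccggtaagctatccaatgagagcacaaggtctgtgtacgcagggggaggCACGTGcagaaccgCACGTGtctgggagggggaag
CACGTG, which contains ACGTG, occurred in 6 of 22 windows of the measured clock genes (27.3%), in 8.56% of the windows of all measured genes and in 3 of 22 windows of the genes called lower (13.6%).

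The other genes that fell belong to no single list. Ccng2, an unconventional cyclin linked to growth arrest, went from 28.0 FPKM (21.6 to 34.5) to 14.8 FPKM (11.4 to 18.2), with 2383 and 1334 estimated counts. Boc, a Hedgehog co-receptor, went from 5.03 FPKM (3.87 to 6.19) to 2.72 FPKM (2.04 to 3.40), while of the other 7 measured Hedgehog genes 0 were called and Ptch1, the receptor, had a log2 ratio of -0.31. Syt1, a calcium sensor of synaptic vesicles, went from 9.42 FPKM (7.33 to 11.5) to 5.91 FPKM (4.51 to 7.30). Syt1 stood at -0.25 at 8 h and -1.34 at 24 h. It is 1 of 16 neuron markers, of which 4 passed the limits. Their summed level over the 13 with a locus was 21.4 FPKM at 0 h and 18.7 FPKM at 1 h, 0 of them were at 0 in both conditions, and Map2, Elavl4 and Stmn2 had log2 ratios of 0.27, -0.09 and 0.03. The part of neuron content in the Syt1 value was not tested.

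The remaining genes that fell have varied roles. Bbs10, a chaperonin-like gene of the Bardet-Biedl syndrome with 2 exons, went from 3.67 FPKM (2.70 to 4.63) to 1.52 FPKM (1.04 to 2.01). Jrk and Jrkl, which derive from a transposase, went from 4.24 FPKM (3.28 to 5.20) to 2.52 FPKM (1.91 to 3.13) and from 5.28 FPKM (4.02 to 6.53) to 2.87 FPKM (2.11 to 3.63). All of these intervals are apart. Tmem126b, an assembly factor of respiratory complex I, went from 11.2 FPKM (8.66 to 13.8) to 6.76 FPKM (5.10 to 8.42), and the zinc-finger gene Zfp760 from 14.9 FPKM (11.8 to 18.0) to 8.58 FPKM (6.64 to 10.5). The long noncoding transcript B230354K17Rik went from 10.1 FPKM (7.92 to 12.3) to 6.04 FPKM (4.67 to 7.42). Mterf1b, whose family binds mitochondrial DNA and which has the close paralog Mterf1a with which reads could be shared, went from 1.96 FPKM (1.20 to 2.72) to 0.724 FPKM (0.282 to 1.17), on 95.0 and 36.7 estimated counts.

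For these genes the later tables, which share the untreated libraries, gave the following log2 ratios. Bbs10 stood at -1.22 at 1 h, -1.12 at 8 h and -0.92 at 24 h. Jrk stood at -0.73, -0.89 and -0.995, and Jrkl at -0.85, -0.70 and -0.69. Tmem126b stood at -0.72, -0.73 and -0.75, a value that hardly differs between the tables. B230354K17Rik stood at -0.74, -1.35 and -1.23, Mterf1b at -1.32, -1.43 and -0.88 and Zfp760 at -0.79, -0.78 and -0.30. Ccng2 stood at -0.92, -0.01 and 0.28, Stc1 at -1.04, 0.095 and 0.55, Ciart at -1.20, -0.07 and 0.69, and Boc at -0.86, -0.19 and -0.34. Thus the genes called lower at 1 h comprise some with low values in all 3 tables and some with low values at 1 h and values near or above 0 later.

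In 3 of the 24 called genes the estimated counts did not follow the FPKM, which divides counts by a transcript length that depends on the isoforms assigned. Tmem200a, a membrane protein gene, went from 2.37 FPKM (1.53 to 3.21) to 0.390 FPKM (0.0131 to 0.767), the lowest log2 ratio called (-2.33), but had 37.0 counts at 0 h and 44.7 at 1 h. Foxn3, a forkhead repressor, went from 17.8 FPKM (14.5 to 21.1) to 8.07 FPKM (6.10 to 10.1) with 2017 and 2039.6 counts. Mylpf, a myosin light chain, went from 20.8 FPKM (16.6 to 24.9) to 10.4 FPKM (6.38 to 14.4) with 138 and 139 counts. These FPKM values are no measure of a change in the number of reads. In the other 21 called genes the count ratio also passed 1.5-fold in the same direction. Over all genes, 88 (0.788%) had FPKM and count ratios more than 0.5 apart on the log2 scale.

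Ranking by log2 ratio among the 10403 genes with at least 100 estimated counts in each condition showed the same limit. Of the 10 lowest genes, 5 were also 1.5-fold lower in counts: Chac1, Bbs10, Ciart, Bhlhe40 and Stc1. Foxn3, Ppm1k, Rbms3, Agap1 and Apc2 were not, with count log2 ratios from -0.49 (Apc2) to 0.02 (Foxn3). Of the 10 highest, 2 were 1.5-fold higher in counts, Fos and Rps27rt, a ribosomal protein retrocopy with which reads of its parent gene could be shared, at 60.6 FPKM (35.4 to 85.9) and 98.4 FPKM (53.7 to 143). Ndufaf8, a complex I assembly factor, was at 9.99 FPKM (6.82 to 13.2) and 16.5 FPKM (11.1 to 21.9), which overlap. Creb5, Fam228b, Ccdc191, Zfp987, Ptpn1, Ece1 and Gm14401 made up the rest, with overlapping intervals and count log2 ratios from -0.60 (Gm14401) to 0.34 (Creb5).

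The genes that write, erase and read m6A were near their starting level. Of 18 measured genes 0 were called and the median log2 ratio was 0.05. With 0.215% of all genes called, 0 calls in a list of this size is near the share of all genes. The reader Ythdf2, which recruits a deadenylase, was the highest, at 42.1 FPKM at 0 h and 56.2 FPKM at 1 h (log2 ratio 0.42), followed by the METTL3 partner Wtap at 0.30 and the associated ubiquitin ligase Cbll1 at 0.26. The demethylase Alkbh5 was the lowest at -0.16. The ligase components that dTAG-13 recruits and Fkbp1a, the natural FKBP12 gene, gave 0 calls in 9 genes, also near that share, with Fkbp1a at 0.12.

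**Figure D4:**
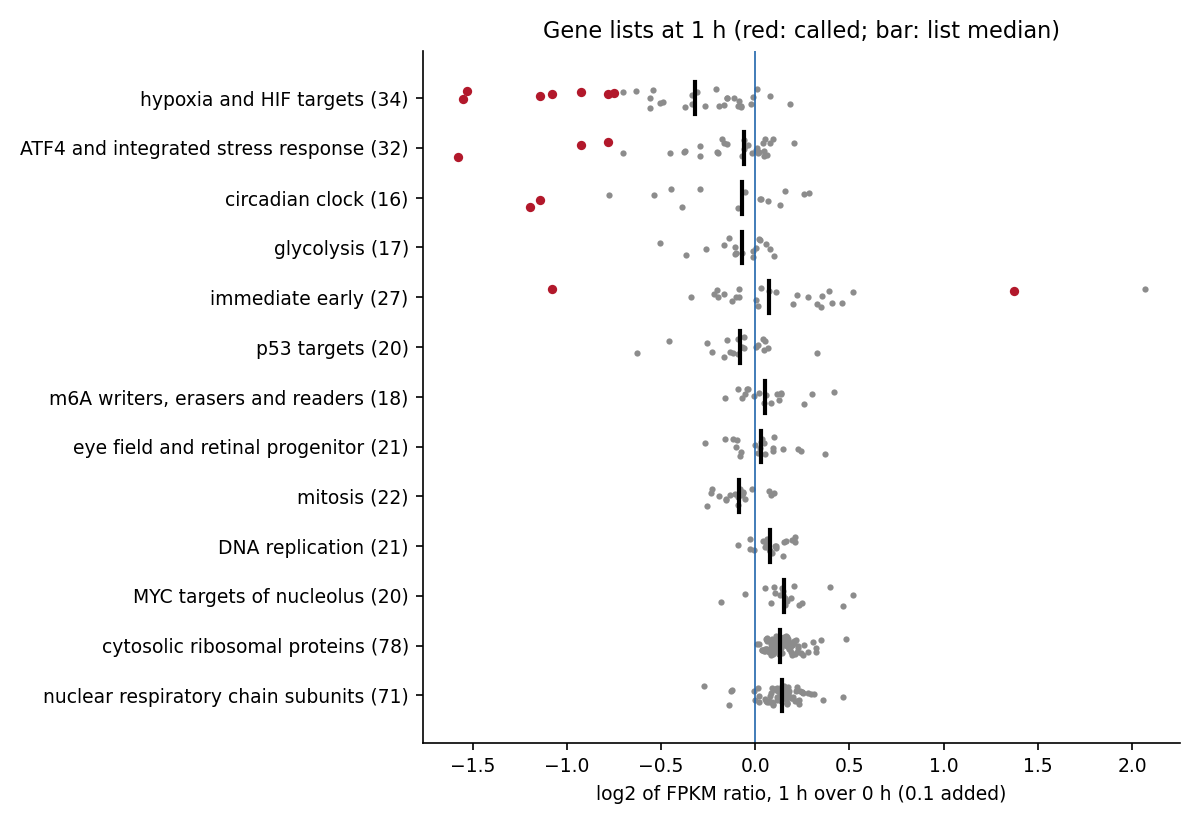
Log2 FPKM ratio of 1 h over 0 h (horizontal axis, 0.1 FPKM added) of each measured gene in 13 lists (number measured in brackets), with the list median as a black bar, called genes in red and the median of all 11174 genes as a blue line. The hypoxia list has the lowest median of those drawn, -0.32, and the ribosomal protein and respiratory chain lists lie to the right of 0 in a narrow band.

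Small shifts shared by large groups of abundant transcripts were present without any call. All 78 measured cytosolic ribosomal protein genes lay above 0 (against 49.9% of all genes), with a median log2 ratio of 0.13, equal to 0.17 in estimated counts. Of 71 nuclear genes for respiratory chain subunits 65 lay above 0 with a median of 0.14. In the list of nucleolar MYC targets 18 of 20 genes lay above 0, with a median of 0.15. That list also holds the factors Myc and Mycn themselves. Mycn was at 17.6 FPKM and 24.3 FPKM, a log2 ratio of 0.47. The 8 measured genes of the mitochondrial genome all lay above 0, with a median of 0.195. Their largest ratio was 0.41 in mt-Nd1. In the later tables the ribosomal protein median was -0.01 at 8 h and -0.05 at 24 h, and that of the respiratory chain -0.18 and -0.20.

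The ribosomal protein and respiratory chain groups have short and abundant transcripts, and both properties varied with the ratio across all genes. For the nucleolar MYC targets and the mitochondrial genome the lengths were not summarised. Across 10806 protein-coding genes Spearman's rho of the log2 ratio was -0.25 with transcript length, -0.26 with coding length and 0.21 with the 0 h FPKM, as a description over genes that share the same libraries. The median log2 ratio was 0.09 in the shortest of 10 equal groups (median length 962 bases) and -0.07 in the longest (median 8059 bases). With the genes split into 3 equal groups by 0 h FPKM, the rho with length was -0.36 in the highest, -0.19 in the middle and -0.15 in the lowest. The median transcript length was 869 bases for the ribosomal protein genes, 821 for the respiratory chain genes, 3001 for the hypoxia genes and 3411 for 305 measured zinc-finger genes named Zfp, whose median log2 ratio was -0.07. The part of length in the group medians was not tested.

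**Figure D5:**
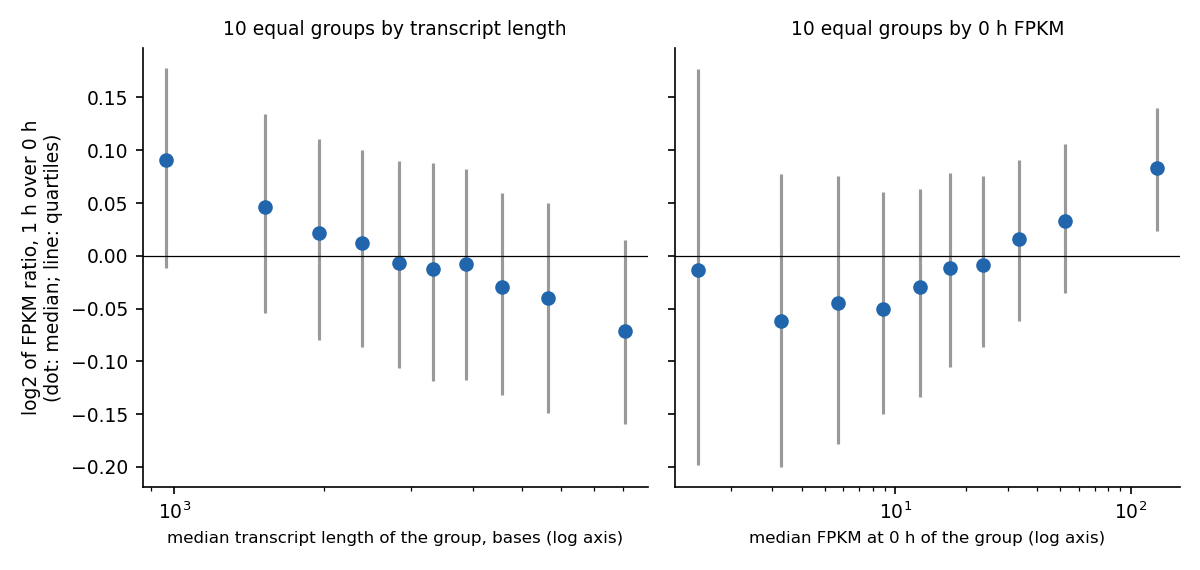
Median log2 FPKM ratio of 1 h over 0 h (dots) with quartiles (lines) in 10 equal groups of 10806 protein-coding genes, by transcript length (left, bases, log axis) and by the 0 h FPKM (right, log axis). The medians go from 0.09 in the shortest to -0.07 in the longest group, and the group with the most abundant transcripts has a median of 0.08.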

How the data were processed

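Per the submitters' processing notes, reads were processed with Cufflinks 2.2.1 and Cuffdiff against mm10; the aligner, the annotation and strandedness are not given in the sources used here. The authors deposited, per the file headers, FPKM with lower and upper limits and a status, and estimated counts with their variance, for each condition pooled over its libraries. Groups came from sample titles. Ratios were computed with 0.1 FPKM added (1 for counts) in Python 3.11.15 with pandas, and gene models came from GENCODE M21, which 99.2% of genes matched. The 40 gene lists hold textbook members; members and lists were chosen with earlier results of these data known. Named genes are every called gene, the 10 highest and lowest with at least 100 counts in each condition, up to 4 per list with the largest ratio, Mettl3, and further list members and genes just outside the rule chosen after their values were seen. The rule was tested on simulated data, which cannot show the spread between the libraries that each column pools. Alternatives changed the pseudocount, unit, limits and rule. Promoter windows were 250 bases upstream, from RefSeq.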

Additional observations from a re-analysis of the deposited data

Results flagged for a closer look

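In 5 genes the value at 1 h and a later value were both called and had opposite signs, although both are set against the same untreated libraries. The difference between times was not tested, since each column pools its libraries. Adm had a log2 ratio of -1.55 at 1 h and 1.49 at 24 h. Ppp1r3c had -1.53 at 1 h, 0.76 at 8 h and 1.53 at 24 h. Bhlhe40 had -1.14 at 1 h and 1.14 at 24 h. Ier3 had -1.08 at 1 h and 0.81 at 24 h, and Ddit4 had -0.93 at 1 h and 0.70 at 24 h. All 5 belong to the hypoxia list, which was drawn up with earlier results of these data known. Bhlhe40, Ier3 and Ddit4 also stand in other lists. The rule called 0.215% of all genes at 1 h, 4.62% at 8 h and 5.64% at 24 h.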

How the results depend on the processing

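No paired analysis was possible because each deposited column pools both libraries of a group; for the same reason no library could be left out. The count of 24 called genes became 12 with a 2-fold limit (11 lower), 233 with 1.5-fold alone (156 lower, 77 higher) and 73 with 1.5-fold and more than 2 combined deposited SDs of the counts (67 lower, 6 higher). With no minimum level the genes called higher were 4. Requiring 1.5-fold in counts as well, an alternative chosen after seeing the data, left 21. With estimated counts in place of FPKM, Tmem200a (0.27), Foxn3 (0.016) and Mylpf (0.017) were above 0. Ciart and Syt1 kept their sign in counts but were not called, and Jrk was not called with 1 FPKM added. The other 18 called genes kept direction and call under the changes of pseudocount, unit, minimum FPKM or count, shared loci and centring, wherever they were measured, but not all of them met the 2-fold limit. The hypoxia median was -0.21 without genes of other lists, also chosen after seeing the data, with 3 of 29 called; under the other alternatives it moved by less than 0.1. Of the 40 list medians 5 changed sign under an alternative, those of the BMP and TGF-beta (-0.07 at 5 FPKM or more), endoderm, pigment epithelium, surface ectoderm and FGF lists. Genes with intervals that reach 0 at 0 h (418) could not be called lower.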

Other observations

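Other groups moved little and without any call, where 0.215% of all genes were called. Of 22 mitosis genes 19 lay below 0, with a median log2 ratio of -0.08, and Cenpe, the kinetochore motor, was the lowest at -0.26. Of 21 DNA replication genes 17 lay above 0, with a median of 0.08, and the S-phase cyclin gene Ccne1 stood at 0.21. Of 17 Notch pathway genes 14 lay below 0 (median -0.06), with the ligand Dll1 at -0.38 and the feedback inhibitor Nrarp at 0.34. Of 16 NRF2 genes 13 lay above 0 (median 0.08), with the quinone reductase Nqo1 at 0.44. Txnip, which restrains glucose uptake, was at 78.4 FPKM and 52.9 FPKM, and the nuclear long noncoding RNA Neat1 at 3.77 FPKM and 2.40 FPKM. Blood markers were nearly absent: 2 of 8 passed the limits, their summed level was 4.06 FPKM at 0 h and 4.26 FPKM at 1 h, and Cd52, Hba-a1, Hbb-bt and Tyrobp were listed at 0.

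The report leaves out the 4822 loci without a gene name, and how many of them passed the same limits was not counted, so no share is given. Of those that did, 6 met the call rule, 3 lower and 3 higher. Without a share these counts are not set against those of the named genes. These 6 were looked at after the data were seen. The best supported lies at chr4:34789361-34800594 (mm10), 2519 bases from Zfp292, and was at 0.673 FPKM at 0 h (0.491 to 0.856) and 1.68 FPKM at 1 h (1.29 to 2.07), from 252 and 627 estimated counts. A lower one at chr14:12338873-12341028, 1066 bases from Fezf2, was at 1.01 FPKM (0.609 to 1.42) and 0.320 FPKM (0.102 to 0.539). Whether these are separate transcripts or extensions of the neighbouring genes was not tested.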
